A study of Mus musculus with 24 samples.

Results

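The response of the slow soleus (SOL) muscle to 2.5 days of OSKM induction was measured in 4 of the 24 RNA-seq libraries of a mouse time course, 2 from Cre+ and 2 from Cre- animals, chosen by their column names in the count table. OSKM stands for the reprogramming factors Oct4 (the product of Pou5f1), Sox2, Klf4 and c-Myc. Both groups were Acta1-Cre/4Fhet mice of 2 months, so all animals carried the OSKM cassette (4F), and all of them drank water with 1 mg/ml doxycycline (Dox). The groups differed in the Acta1-Cre transgene, which opens the cassette's activator in skeletal muscle fibres, and they are called Cre+ and Cre- below. Each group is given as 2 independent muscles, 1 library each. The other libraries came from the extensor digitorum longus (EDL), a fast muscle, and from 5.5 and 8.5 days of Dox.

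The 4 factors can return differentiated cells to a pluripotent state when they are expressed for long enough, and short expression changes cells without reaching that state. The soleus is a postural muscle rich in slow, mitochondria-filled fibres that burn fatty acids and glucose by oxidative phosphorylation. Its fibres sit beside satellite cells, the muscle's stem cells, which read signals such as Wnt4 from the fibre. The libraries were made from whole muscle, so fewer cells of a type and less RNA per cell cannot be told apart.

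The 4 libraries held between 38659760 and 46333742 counted reads, and 3 counts, the limit that a count of 0 allows, were 0.0647 to 0.0776 CPM, counts scaled to library size. This limit covers counting error only. The soleus identity was clear in the slow myosin Myh7, which lay between 1848 and 3097 FPKM (reads scaled by exon length and library size) in these libraries and between 4.82 and 41.9 FPKM in the 4 EDL libraries of the same day. All 8 libraries of 2.5 days held transcripts of 4 Y-linked genes (142.1 to 189.1 CPM summed) and 1.05 CPM of Xist or less, whereas the libraries of 5.5 and 8.5 days held at least 113.9 CPM of Xist and at most 0.81 CPM of those Y-linked genes. Day and sex therefore cannot be told apart between time points, while Cre+ and Cre- at 2.5 days were matched in this respect.

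Pou5f1 and Sox2 rose in Cre+ soleus, while Myc missed the threshold and the Klf4 groups overlapped. Pou5f1 had 5.02 and 9.62 FPKM in the 2 Cre+ libraries and 0.0192 and 0.0362 FPKM in the 2 Cre- libraries. These levels rest on 844 counts against 3, a ratio of 257 with a 95% counting interval of 87.5 to 1250. Sox2, a partner of Oct4, had 2.00 and 4.64 FPKM against 0.0315 and 0.0594, and its 697 counts against 9 gave a ratio of 70.7 (37 to 155). Sox2 lies inside the non-coding Sox2ot on the same strand, so its reads may be shared with that gene. Both passed the quasi-likelihood test of edgeR (Benjamini-Hochberg adjusted p = 0.00391 and 0.0109), and replicate 2 of the Cre+ libraries was the higher for each. Neither call held when either Cre- library was left out. Sox2 also missed the threshold under edgeR on all 24 libraries (adjusted p 0.0656). Over all alternatives the log2 fold change stayed between 7.24 and 8.25 for Pou5f1 and between 5.26 and 6.49 for Sox2.

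Myc, the growth-promoting factor of the set, had 8.17 and 14.0 FPKM in Cre+ and 2.45 and 1.95 FPKM in Cre- libraries. Its groups did not overlap, and 43.8% of all tested genes had both Cre+ libraries above both Cre- libraries. The log2 fold change of Myc was 2.18 ± 0.496 (SE), but the adjusted p of edgeR was 0.0971, above the 0.05 used here. Klf4 had 17.3 and 15.9 FPKM against 11.1 and 17.1, so its groups overlapped (log2 fold change 0.08 ± 0.40). Its level in Cre- soleus was the highest of the 4 factors. Read counts do not separate cassette transcripts from endogenous ones.

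**Figure D1:**
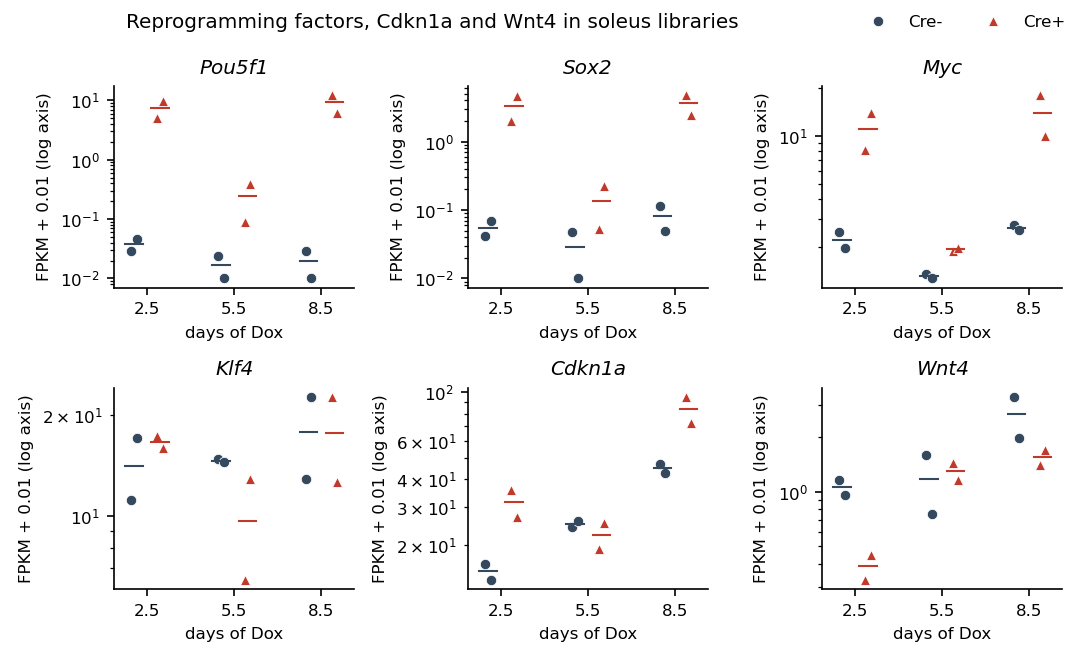
FPKM (with 0.01 added, log axis) of the 4 reprogramming factors, Cdkn1a and Wnt4 in each soleus library by days of Dox, with circles for Cre-, triangles for Cre+ and a line at the mean of 2 libraries. At 2.5 days Pou5f1, Sox2, Myc and Cdkn1a lie above both Cre- libraries and Wnt4 lies below them, while the Klf4 groups overlap.

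Of 30 genes of the pluripotency network, 10 had enough counts to be tested and 0 passed the thresholds. Over all 15372 genes tested 0.384% passed, so 0 of 10 says little about the list. The median log2 fold change of the 10 was -0.09 against 0.02 over all genes. Among the genes the study follows in muscle, Cdkn1a, which encodes the cell cycle inhibitor p21, had 35.7 and 26.9 FPKM in Cre+ and 16.4 and 13.8 FPKM in Cre- libraries (log2 fold change 0.90 ± 0.202, adjusted p of edgeR 0.0942). The groups did not overlap, yet the gene missed the threshold. Of 30 p53 target genes 0 passed it, where 0.384% of all tested genes did. Itga7, an integrin of the fibre membrane, had 54.8 and 55.5 against 49.0 and 38.8 FPKM, and Sdc4, a syndecan, had 25.2 and 24.4 against 19.4 and 27.0 FPKM. Their adjusted p values of edgeR were 0.772 and 0.960. Wnt2b, a Wnt ligand, was at most 0.123 FPKM in these 4 libraries.

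Wnt4 fell. This secreted ligand, known to hold satellite cells in quiescence, had 0.317 and 0.441 FPKM in Cre+ and 1.15 and 0.952 FPKM in Cre- libraries, or 56 and 69 counts against 170 and 149. The log2 fold change was -1.63 ± 0.306 with an adjusted p of 0.0452 (edgeR), and every alternative analysis gave a negative value, from -1.88 to -1.41. The adjusted p rose above 0.05 when any 1 of the 4 libraries was left out. Over 33 tested Wnt ligands, receptors and related genes, Wnt4 was the 1 gene that passed, and the median log2 fold change of the list was 0.14.

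Across all genes, 59 of the 15372 tested (0.384%) passed an adjusted p under 0.05 with an absolute log2 fold change over 0.5, and these are called DE genes below. Of them 53 were upregulated (0.345% of the genes tested) and 6 downregulated (0.0390%). At such shares a short list often holds 0 DE genes, so a count of 0 here says little about a list. In none of the 59 did the CPM of the groups overlap. Over all tested genes 43.8% had both Cre+ libraries above and 10.5% had both below, so the lack of overlap alone was common. DE genes comprised 55 protein-coding genes and 4 non-coding RNAs.

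The number of DE genes moved with the analysis. DESeq2 on the 4 libraries, the tool and the pairwise design of the study, called 537 genes, 280 up and 257 down, and among them were 54 of the 59. Leaving out a library changed it as well, to 14 without Cre+ replicate 1, 39 without Cre+ replicate 2, 12 without Cre- replicate 1 and 7 without Cre- replicate 2, and none of these fits called a downregulated gene. There were 7 genes called in all 4 of these fits and under every alternative: AA465934, AI450353, Serpinb1a, Abcg4, Carns1, S100a13 and Slc25a24. No alternative reversed a direction among the 59, though the filter of at least 10 counts in every library left 50 of them with a value. Under edgeR on the 8 soleus libraries 22 of the 59 stayed called and 37 did not. Fah, Aldh1b1, Gatm, Acot9, Clic1, Anxa2, Anxa4, Anxa7, Serpinb6a, Mllt3, Cspg4, Vamp5 and Rhbdl1 were among the 37. With each library's trend on transcript length taken out, an alternative chosen after the data were seen, 46 genes were called and 42 of the 59 were among them. Of the genes described below, Acsl3, Stk38l, 4933431E20Rik, Mllt3, Cspg4, Gramd4, Prepl, Fxyd6, Myeov2 and 2310075C17Rik were not.

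**Figure D2:**
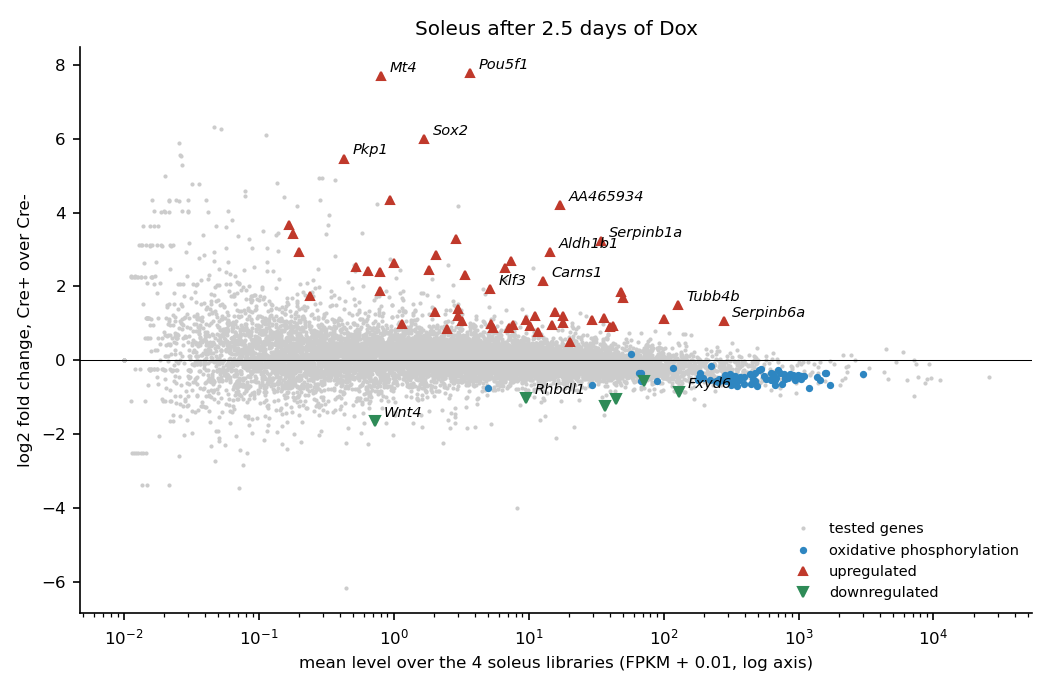
Log2 fold change of each tested gene in soleus at 2.5 days (Cre+ over Cre-) against its mean level over the 4 libraries (FPKM with 0.01 added, log axis). The 53 upregulated genes (triangles up) spread over all levels, the 6 downregulated genes (triangles down) are few, and the oxidative phosphorylation genes (blue) lie just under 0 at the abundant end.

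The lowest adjusted p belonged to AA465934, a non-coding RNA on chromosome 11. It had 36.2 and 29.3 FPKM in Cre+ and 1.54 and 1.64 FPKM in Cre- libraries (log2 fold change 4.21 ± 0.333, adjusted p of edgeR 0.000234). Its neighbour AI450353, also non-coding, had 5.83 and 5.48 against 0.915 and 1.15 FPKM. At 5.5 days both were also high in Cre- soleus. AA465934 then had 35.9 and 62.8 FPKM in Cre- and 38.8 and 40.8 FPKM in Cre+ soleus. AI450353 had 5.22 and 9.2 against 6.33 and 7.65 FPKM. In Cre- EDL of that day AA465934 had 29 and 65.5 FPKM, and in Cre- soleus of 8.5 days 0.947 and 0.685 FPKM. The reason for the high Cre- levels was not tested. The transcripts of these genes overlap on the same strand, so their reads may be split between them and the separate values are uncertain.

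Serpinb1a, an intracellular inhibitor of neutrophil-type serine proteases, had 78.1 and 46.5 FPKM in Cre+ and 4.68 and 7.39 FPKM in Cre- libraries (log2 fold change 3.22 ± 0.348). Serpinb6a, of the same clade B of serpins, was far more abundant, with 420.3 and 359.0 against 143.8 and 191.3 FPKM (1.07 ± 0.205). Of 9 tested clade B serpins these 2 passed, and the median log2 fold change of the 9 was 1.07. The family was chosen after its values were seen.

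Enzymes and carriers of metabolite handling were among the upregulated genes. Carns1, which makes the muscle dipeptide carnosine, had 23.8 and 18.4 FPKM in Cre+ and 4.28 and 4.33 FPKM in Cre- libraries (log2 fold change 2.14 ± 0.213, adjusted p of edgeR 0.000868). Aldh1b1, a mitochondrial aldehyde dehydrogenase, had 35.6 and 15.9 against 2.56 and 3.53 FPKM. Fah, the last enzyme of tyrosine breakdown, had 11.3 and 14.7 against 1.91 and 1.71 FPKM. The groups did not overlap in these 3, as in every DE gene, and 43.8% of all tested genes had both Cre+ libraries above. Of the 3, Aldh1b1 varied most between the Cre+ libraries.

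Slc25a24, the ATP-Mg/phosphate carrier of the inner mitochondrial membrane, had 4.32 and 4.57 against 1.40 and 1.65 FPKM. Gatm, the first enzyme of creatine synthesis, had 3.85 and 4.77 against 1.59 and 1.79 FPKM. Among lipid genes, Acsl3, which activates long-chain fatty acids, had 14.0 and 12.9 against 5.66 and 5.70 FPKM. Acot9, a mitochondrial acyl-CoA thioesterase, Sgms2, a sphingomyelin synthase, and Abcg4, a sterol transporter, were upregulated too (log2 fold changes 1.09, 1.89 and 2.53). Acsl3 overlaps Utp14b on the same strand, so reads may be shared between them.

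Some genes for calcium- and membrane-binding proteins were upregulated. S100a13, a calcium-binding protein of the S100 family, had 78.0 and 76.7 FPKM in Cre+ and 17.1 and 21.3 FPKM in Cre- libraries (log2 fold change 1.86 ± 0.204, adjusted p of edgeR 0.00158). Of 10 tested annexins, which bind membrane phospholipids in the presence of calcium, 3 were upregulated and 0 downregulated, with a median log2 fold change of 0.35 (a family also chosen after its values were seen). Anxa2 had 172.4 and 114.0 against 56.1 and 61.9 FPKM, Anxa4 had 55.4 and 47.8 against 22.3 and 19.7 FPKM, and Anxa7 had 59.1 and 49.0 against 25.2 and 26.7 FPKM. Clic1, a chloride intracellular channel protein, and Kcnk5, a background potassium channel, were upregulated by 1.69 and 2.84 on the log2 scale.

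Tubb4b, a beta-tubulin, rose as well, with 257.7 and 128.6 FPKM in Cre+ and 53.4 and 69.3 FPKM in Cre- libraries (log2 fold change 1.51 ± 0.281, adjusted p of edgeR 0.0443). Without Cre+ replicate 1, the highest library, its log2 fold change was 0.92 (adjusted p 0.286), and it also missed the threshold without either Cre- library, under edgeR on the 4 or the 8 soleus libraries and under DESeq2 on the 4. In the fit of all genes it was the 1 of 27 tested microtubule and kinesin genes that passed. The list's median log2 fold change was 0.21, and 6 members were higher at an unadjusted p under 0.05, a level that 6.33% of all tested genes met in that direction. Besides Tubb4b these were Tubb5, Tubb6, Tuba1c, Map1a and Kif21a. Of 34 actin cytoskeleton genes 0 passed, where 0.384% of all tested genes did, and their median was -0.07.

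Some genes known from epithelial cells had levels near 0 in Cre- and higher ones in Cre+ libraries, and Pkp1, Mt4 and Rab17 passed. Pkp1, a desmosomal plakophilin, had 0.844 and 0.796 FPKM in Cre+ and 0.0278 and 0.0052 FPKM in Cre- libraries, or 334 counts against 6. Mt4, a metallothionein of squamous epithelium, had 30 and 24 counts against 0 in both Cre- libraries, and by the limit of 3 counts per library it was at least 8.18-fold higher. Rab17, an epithelial small GTPase, had 2.20 and 1.34 against 0.0436 and 0.109 FPKM. The epithelial keratins Krt8 (0.602 and 0.448 against 0.0144 and 0.0136 FPKM) and Krt7 (0.507 and 0.666 against 0.0821 and 0 FPKM) did not pass the threshold, and the adhesion gene Cdh1 stayed at 0.127 FPKM or below. Of 16 tested genes on the epithelial list, which does not hold Mt4 or Rab17, Pkp1 was the 1 that passed, with a list median of 0.36. Of these 16 genes 10 had positive and 6 had negative values. Pkp1, Mt4 and Rab17 were among the 37 DE genes that missed the threshold under edgeR on the 8 soleus libraries. Mt4 also missed it under DESeq2 on the 4.

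Regulators of transcription among the upregulated genes included Klf3, a zinc finger repressor of the KLF family (7.49 and 9.18 against 2.34 and 1.60 FPKM), Nupr1, a stress-response regulator (57.1 and 58.0 against 29.0 and 25.4 FPKM), and Mllt3 (20.9 and 20.1 against 9.65 and 9.17 FPKM), a chromatin reader tied to transcript elongation. Of 16 tested KLF genes Klf3 alone passed. Nupr1 was also the 1 upregulated member among 20 tested genes of the integrated stress response, whose median log2 fold change was -0.24. Cspg4, the NG2 proteoglycan of pericytes, had 10.9 and 8.42 against 4.81 and 4.63 FPKM and was the only 1 of 11 mural cell markers that passed, with a list median of 0.01.

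The other downregulated genes were a small set. Vamp5, a muscle vesicle protein, had 28.8 and 33.3 FPKM in Cre+ and 55.4 and 59.1 FPKM in Cre- libraries. Fxyd6, a regulator of the sodium pump, had 98.0 and 99.2 against 145.3 and 177.4 FPKM, and Rhbdl1, a rhomboid-family protein, had 7.43 and 6.11 against 11.7 and 13.1 FPKM. The non-coding 2310075C17Rik and the COP9 signalosome gene Myeov2 completed the set, with log2 fold changes of -1.22 and -0.55.

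**Figure D3:**
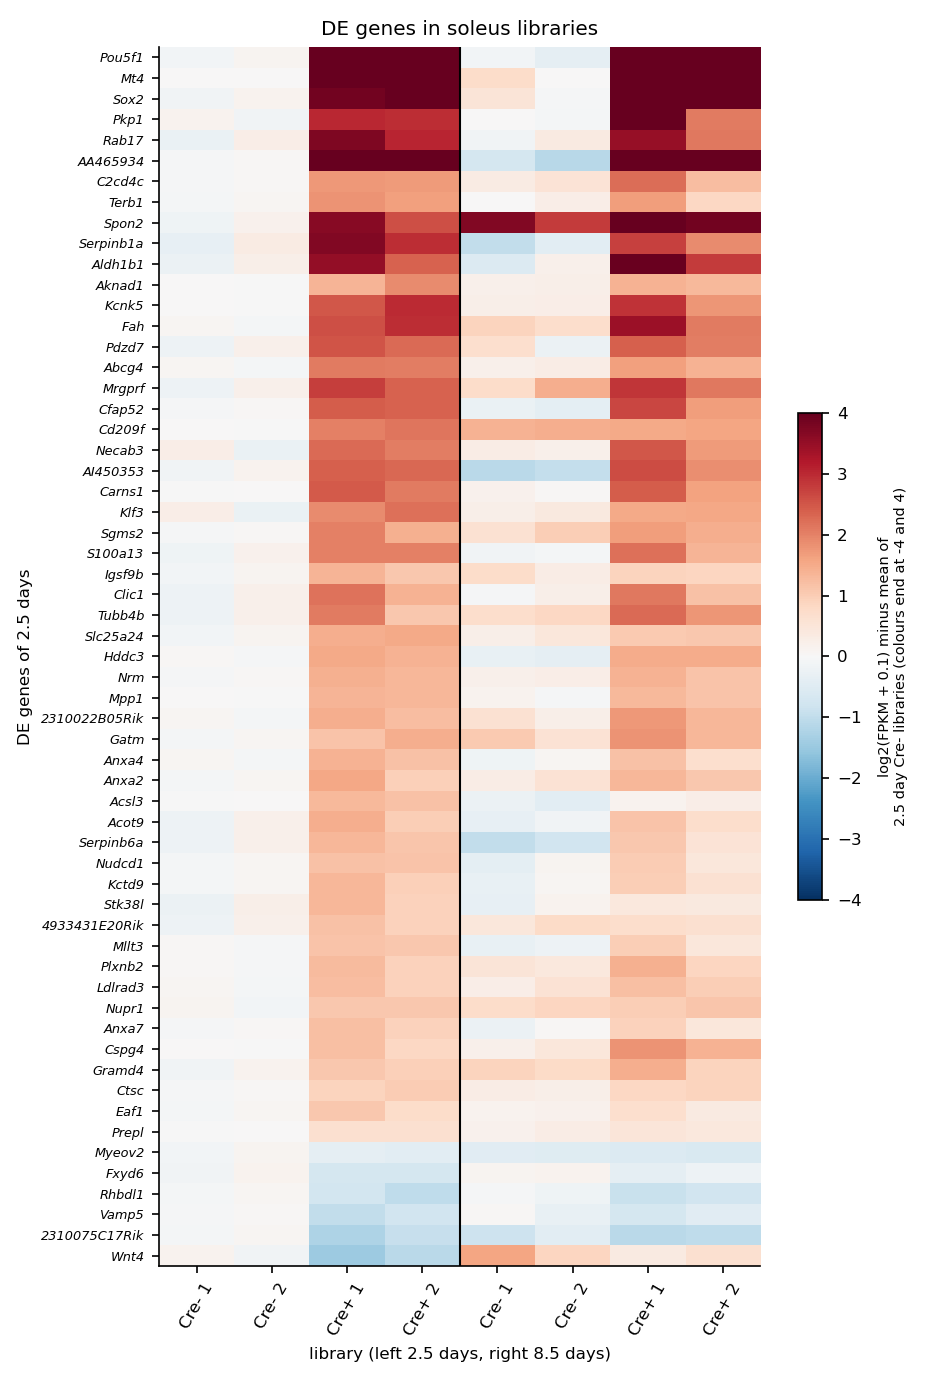
Heat map of the 59 DE genes (rows, by fold change) in 8 soleus libraries, as log2(FPKM + 0.1) minus the mean of the 2.5 day Cre- libraries, with colours ending at -4 and 4. The Cre+ columns of 2.5 days are red for the 53 upregulated and blue for the 6 downregulated genes. Most keep the colour in the Cre+ columns of 8.5 days, but colours there mix differences between days with those between genotypes. Spon2 was also high in the Cre- libraries of 8.5 days (7.62 and 3.98 FPKM). Wnt4 in the Cre+ libraries of 8.5 days (1.39 and 1.68 FPKM) lay above the Cre- ones of 2.5 days.

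The promoters of these genes were searched on both strands for short motifs of the cassette's factors and for the TATA box. The search covered the 250 bases before the RefSeq start site (build GRCm38.p6), where that site lay within 100 bases of the deposited transcript's start. This matched 47 of the 59 DE genes and 11010 of the tested genes. The E-box CACGTG bound by Myc and Max was found in 3 of 42 upregulated promoters (7.14%) against 8.18% of all, and the Sox motif ACAAAG in 9 of 42 (21.4%) against 11.8%. The octamer ATGCAAAT was in 0 of 42 against 1.29%, the Klf motif GGGCGTGG in 2 of 42 (4.76%) against 8.76%, and the TATAAA box in 5 of 42 (11.9%) against 6.96%. Of the 5 downregulated promoters matched, 1 held the E-box (Rhbdl1), 1 the TATA box (2310075C17Rik) and 0 any of the other motifs. The upregulated promoters include those of Pou5f1 and Sox2, and the Sox2 promoter is among those with a Sox motif. For these genes read counts do not separate cassette transcripts from those of the promoters searched. A match is a description of letters and not a site.

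The 3 upregulated promoters with an E-box are shown, followed by that of Wnt4, the signal that fell, each 5′ to 3′ on the gene's strand with motif matches in capitals. They lie at chr11:83291449-83291698 (plus strand), chr15:86058477-86058726 (plus strand), chr7:126625471-126625720 (minus strand) and chr4:137277385-137277634 (plus strand). Gramd4 holds an E-box followed by a Sox motif, and the Wnt4 window holds 85.2% G and C and no match.
AA465934: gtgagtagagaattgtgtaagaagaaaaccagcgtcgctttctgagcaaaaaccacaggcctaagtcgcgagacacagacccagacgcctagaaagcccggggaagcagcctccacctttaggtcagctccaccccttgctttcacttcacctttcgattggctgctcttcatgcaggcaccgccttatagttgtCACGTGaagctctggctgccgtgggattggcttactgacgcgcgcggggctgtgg
Gramd4: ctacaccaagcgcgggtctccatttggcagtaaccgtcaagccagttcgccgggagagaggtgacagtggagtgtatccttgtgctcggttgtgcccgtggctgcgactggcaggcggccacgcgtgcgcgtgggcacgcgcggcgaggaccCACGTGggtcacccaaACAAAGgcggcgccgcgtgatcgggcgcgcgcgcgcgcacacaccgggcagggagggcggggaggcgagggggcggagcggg
Nupr1: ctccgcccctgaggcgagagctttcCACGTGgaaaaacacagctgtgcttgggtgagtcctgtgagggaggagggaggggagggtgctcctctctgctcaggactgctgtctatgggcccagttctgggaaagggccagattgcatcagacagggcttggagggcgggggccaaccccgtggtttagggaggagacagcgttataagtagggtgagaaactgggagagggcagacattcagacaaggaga
Wnt4: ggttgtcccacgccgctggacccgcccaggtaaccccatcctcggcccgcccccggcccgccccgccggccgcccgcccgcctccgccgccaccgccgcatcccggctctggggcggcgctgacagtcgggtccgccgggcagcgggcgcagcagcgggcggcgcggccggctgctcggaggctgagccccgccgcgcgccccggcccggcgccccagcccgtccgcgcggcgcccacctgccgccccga

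Genes of mitochondrial respiration were lower together, by small amounts. Of 77 oxidative phosphorylation genes 67 were lower in Cre+ soleus at an unadjusted p under 0.05 and 0 were higher, where 7.03% of all tested genes were lower at that level. The median log2 fold change of the list was -0.48 against 0.02 over all genes, and 76 of the 77 had a negative value. None passed the adjusted threshold (lowest adjusted p of edgeR 0.0768), while DESeq2 on the 4 libraries called 32 of them down.

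The lower values ran through the respiratory chain, here split by complex after the values were seen. Complex I, which takes electrons from NADH, had 33 of 36 members lower at an unadjusted p under 0.05, with a median of -0.51. Complex III had 8 of 9 (median -0.49), complex IV, the cytochrome c oxidase, 11 of 12 (-0.42), and the ATP synthase 13 of 15 (-0.39). Complex II had 2 of 4, with a median of -0.30. The exception in sign was Ndufs5, at 0.17 with a standard error of 1.62.

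The differences in level were small beside the levels themselves. Ndufa8, a complex I subunit, had 275.2 and 244.1 FPKM in Cre+ and 337.2 and 397.2 FPKM in Cre- libraries (log2 fold change -0.65 ± 0.139). Cox6a2, the muscle form of a complex IV subunit, had 1505 and 1304 against 2034 and 1957 FPKM. Summed over the 77 genes, the level was 42390 and 40050 FPKM in Cre+ and 45860 and 56130 FPKM in Cre- libraries, so the groups did not overlap, and Cre- replicate 2 stood highest. In 62 of the 77 genes both Cre+ libraries lay below both Cre- libraries, as they did in 10.5% of all tested genes.

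Transcript length and scaling moved with these values. The 77 genes were short (median exon length 707 bases), and over all 1256 tested genes of at most 1000 bases the median log2 fold change was -0.21, against 0.15 for the 2641 genes over 5000 bases. Of those 1256 genes 295 were lower at an unadjusted p under 0.05, against 30 of the 2641. The cytosolic ribosomal protein genes, as short at a median of 716.5 bases, had 6 of 76 lower and a median of -0.14. With the length trend of each library taken out, 52 of the 77 were lower and their median was -0.36. With library size alone as the scale, which shifts the median of all genes to 0.18, 37 were lower, and without Cre- replicate 2 the number was 21 and the median -0.33. Without Cre+ replicate 2 the number was 32. The part of length in the result was not tested further.

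Genes of fuel oxidation upstream of the chain also had lower values. Of 44 genes of the TCA cycle and fatty acid oxidation 25 were lower at an unadjusted p under 0.05, where 7.03% of all tested genes were. None was higher, all 44 values were negative and the median was -0.36. Eci1, an isomerase of unsaturated fatty acid breakdown, had 177.5 and 205.0 FPKM in Cre+ and 283.4 and 263.1 FPKM in Cre- libraries. Cpt1b, which lets fatty acids into mitochondria, had 214.9 and 232.2 against 292.2 and 281.2 FPKM. These genes are longer (median 1997.5 bases) and 25 were lower with the length trend taken out, but 11 to 22 were when a library was left out (11 without Cre+ replicate 1, 13 without Cre+ replicate 2 or Cre- replicate 2) and 6 with library size alone. No gene of the list passed the adjusted threshold in edgeR, and DESeq2 on the 4 libraries called 4 of them down. Of 34 glycolysis and glycogen genes 3 were lower and 1 higher, with a median of -0.08.

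No contractile gene of the slow fibre list passed, where 0.384% of all tested genes did. Of these 16 genes 0 were past an unadjusted p of 0.05, with a median of -0.04, and Myl2, the slow regulatory light chain, had 10190 and 8677 FPKM in Cre+ and 8815 and 9366 FPKM in Cre- libraries. The 16 fast fibre genes had a median of -0.44, with 14 negative values and 3 lower at an unadjusted p under 0.05, and none passed. Over all tested genes 7.03% were lower at that level. Myh1, the fast IIx myosin, had 625.8 and 819.3 against 1056 and 1357 FPKM. Tcap, which anchors titin, had 4581 and 5841 against 9058 and 9366 FPKM (log2 fold change -0.97 ± 0.277, adjusted p of edgeR 0.156).

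Genes of the growth-related lists did not pass in edgeR, where 0.384% of all tested genes did. With so low a share, counts of 0 on these lists say little about them. DESeq2 on the 4 libraries called 2 ribosome biogenesis genes up. The 62 ribosome biogenesis genes, known targets of Myc, had a median log2 fold change of 0.15, with 53 positive values, 3 higher at an unadjusted p under 0.05 and 0 DE genes. Over all tested genes 6.33% were higher at that level. Of 20 aminoacyl-tRNA synthetases and 31 tested cell cycle regulators 0 passed. The 26 genes of developing and denervated muscle had a median of -0.05 and 0 passed.

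Markers of other cell types differed slightly between the groups. Of 14 fibroblast markers 7 were higher at an unadjusted p under 0.05 and 0 lower, where 6.33% of all tested genes were higher. Their median was 0.34, and their summed level was 1720 and 1604 FPKM in Cre+ against 1376 and 1104 FPKM in Cre- libraries. Smoc2, a matrix protein, led them with 40.1 and 36.6 against 20.2 and 25.2 FPKM (adjusted p of edgeR 0.056). The 34 collagen and matrix genes had a median of 0.28 and the 19 macrophage markers one of 0.33, with 4 and 1 members higher at that level. Satellite cell and endothelial markers had medians of -0.16 and -0.20, and Pax7, the satellite cell factor, had 1.69 and 2.23 against 1.55 and 1.44 FPKM. No gene of these lists passed in edgeR, where 0.384% of all tested genes did. DESeq2 on the 4 libraries called 4 fibroblast markers up. The part of these markers in the results above was not tested.

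**Figure D4:**
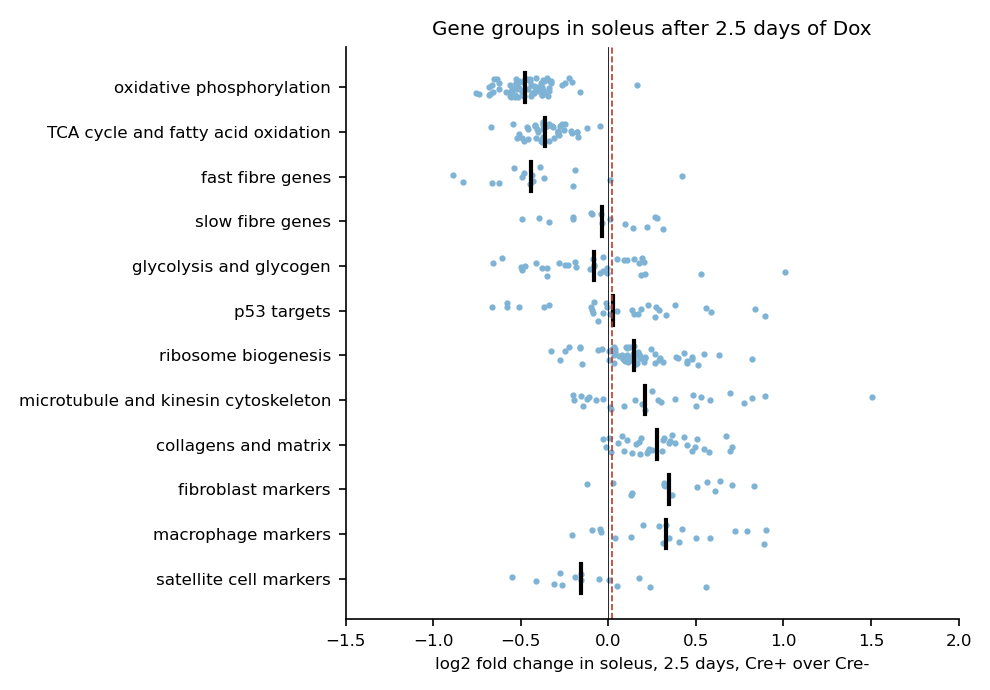
Log2 fold change in soleus at 2.5 days of each tested gene (points) in 12 gene groups, with a black bar at the group's median and a dashed line at the median of all genes. Oxidative phosphorylation (-0.48), fuel oxidation (-0.36) and fast fibre genes (-0.44) lie to the left, and fibroblast markers (0.34) to the right.

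The soleus genes were set beside the EDL muscle of the same day, in which 13.8% of tested genes (2118) were upregulated and 10.2% (1566) downregulated by the same rule. Of the 53 upregulated soleus genes 48 were upregulated in EDL, which is 90.6% of the former and 2.27% of the latter, and of the 6 downregulated genes 5 were downregulated (83.3% and 0.319%). The genes not shared were Cd209f, Acsl3, Stk38l, 4933431E20Rik, Prepl and Myeov2, and 58 of 59 had the same sign. The median absolute log2 fold change of the 59 was 1.39 in soleus and 1.88 in EDL, and 43 had the larger change in EDL. That these genes were chosen in soleus bears on this comparison of sizes.

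The difference between the muscles was tested as an interaction and passed for 4.25% of tested genes (654), or 1019 with EDL and soleus libraries of one genotype, day and replicate number as a block. The labels do not say that such libraries came from the same mouse. Among the 59, 10 passed. Fah and Aldh1b1 rose by 5.80 each in EDL on the log2 scale against 2.69 and 2.93 in soleus, and Nrm, a nuclear envelope protein, by 3.33 against 1.30. Rhbdl1 fell further in EDL, by 3.05 against 1.03. Acsl3 was the gene that rose in soleus (1.09) and had a negative value in EDL (-0.51). Wnt4, Carns1 and Serpinb1a had adjusted p values above 0.05 for this difference.

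For oxidative phosphorylation the median was -0.74 in EDL against -0.48 in soleus, and 0 of the 77 genes passed the test of the difference. Of the fibroblast markers also 0 passed it, with medians of -0.23 in EDL and 0.34 in soleus. Leaving out any of the 8 libraries moved the count of 654 by more than 1.5 times. It was 297, 117, 184 and 291 without soleus Cre+ replicates 1 and 2 and Cre- replicates 1 and 2, and 1785, 210, 191 and 129 without the EDL libraries in that order.

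**Figure D5:**
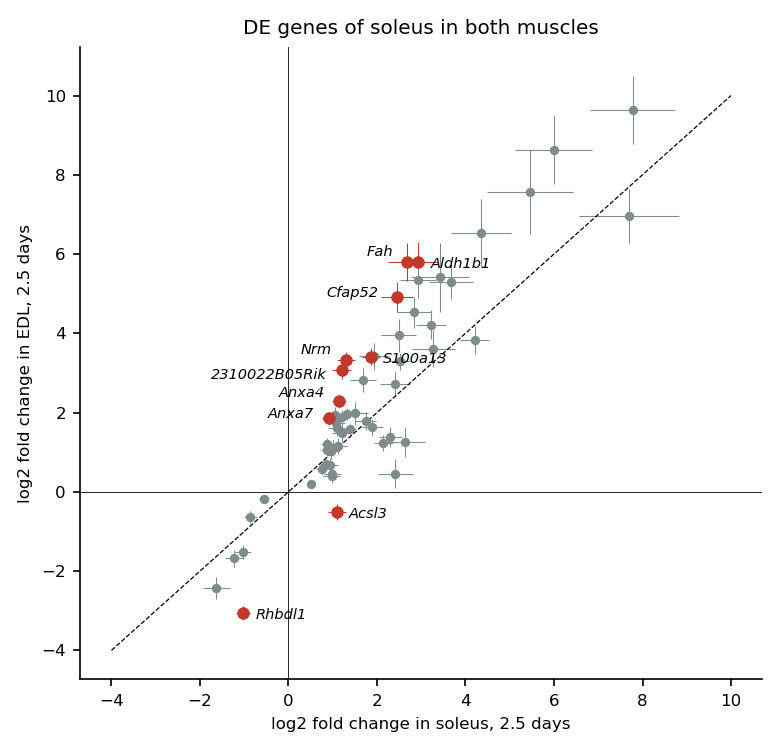
Log2 fold change of the 59 soleus DE genes in EDL (vertical) against soleus (horizontal) at 2.5 days, with standard errors as bars and a dashed line where both are equal. The 10 genes named in red passed the test of the difference, and of these Acsl3 alone lies on opposite sides of 0.

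In soleus after 8.5 days 0.631% of tested genes (97) were DE genes, and 24 of these were on a list of 28 liver transcripts. Alb, the albumin gene of the liver, had 501 and 3719 counts in the Cre- libraries of that day and 45 and 49 in the Cre+ ones, against 18 to 25 in the 4 soleus libraries of 2.5 days. The 97 held 31 of the 59, which is 52.5% of the genes of 2.5 days and 32% of those of 8.5 days. None of the 59 was on the liver list, and all 59 had the same sign. Without Cre- replicate 2 of 8.5 days, the library with the most Alb, 24 genes were called at 8.5 days, 9 of them liver transcripts and 10 of them among the 59. The number called and the number among the 59 were 132 and 18 without Cre- replicate 1, 15 and 12 without Cre+ replicate 1, and 56 and 26 without Cre+ replicate 2. Wnt4 had 1.39 and 1.68 FPKM in Cre+ and 3.32 and 1.97 FPKM in Cre- libraries then, with a log2 fold change of -0.83 that did not pass. The test of the difference between days called 0 genes with edgeR, with 403 at an unadjusted p under 0.05, and 9 with DESeq2 on the same libraries. Without 8.5 day Cre- replicate 1 edgeR called 11, and without Cre+ replicate 2 of that day it called 1. The oxidative phosphorylation median was -0.19 at 8.5 days. After 5.5 days Pou5f1 had only 4 and 22 counts in Cre+ soleus, and 0 of the 59 passed in the fit of all 24 libraries.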

How the data were processed

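Stranded, single-end, polyA-selected RNA-seq reads of whole muscles were aligned to mm10 by the authors with STAR 2.5.3a after FastQC 0.11.2, and HOMER produced the deposited raw counts per gene. The strand setting of the counting was not given. The deposited table also holds an exon length (other) for each of 24537 genes, from which CPM and FPKM were computed.

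The fit used 16 libraries (8 groups of 2, 2.5 and 8.5 days, 36088781 to 53041969 counts) in edgeR 4.0.16 (R 4.3.3) with TMM scaling, filterByExpr at a minimum count of 10 and the quasi-likelihood test with Benjamini-Hochberg adjustment. DE genes were those whose log2 fold change exceeded 0.5 in size at an adjusted p below 0.05. The study removed samples that lacked OSKM expression, and the 5.5 day libraries entered only the fit of all 24 libraries. An exact permutation test of 2 against 2 libraries cannot go below 0.333, so none is given. Counting intervals are exact binomial at 95% and cover counting error only. Replicates differed by more than sampling noise (mean chi-square per gene 41.5 in Cre+ and 50.2 in Cre-).

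Alternatives were RLE factors, library size alone, other count filters, DESeq2 1.42.0, other sets of libraries, other thresholds, a replicate block, a length offset and each library left out. EDL and soleus libraries of the same number deviated together in all 6 groups (correlation 0.174 to 0.441), so the difference between muscles was also fitted with these pairs as a block, although the labels do not say that a pair came from 1 mouse. The genes named were the cassette genes, those the study names, the 25 largest rises over 0.5 FPKM and all falls, genes not called in EDL, called list members with the most abundant members of each list, and the largest differences between muscles and days. Only some of these are printed. Krt7, Krt8, Cdh1, Smoc2, Myh1, Eci1, Cpt1b, Ndufa8, Ndufs5, Kif21a, Map1a, the tubulin genes other than Tubb4b, and the called genes with smaller rises (Gatm, Acot9, Serpinb6a, Mllt3, Gramd4, Nrm, 2310022B05Rik, Anxa2, Anxa4, Anxa7) lie outside that rule and were chosen after their values were seen. The gene lists and the comparison were chosen with earlier results of these data known. The scripts were tested on simulated data with the same spread for all genes. For soleus at 2.5 days, 64 of 100 genes with a simulated log2 fold change of 1 in size were recovered. At a size of 2 all 100 were, and 11 unchanged genes were called. A gene that did not pass may therefore still have changed. Promoter sequences came from RefSeq (GRCm38.p6).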

Additional observations from a re-analysis of the deposited data

Results flagged for a closer look

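Among the 59 soleus DE genes, 10 had a change that differed between EDL and soleus after 2.5 days, by edgeR's test of the difference over all genes. The difference of the log2 fold changes (EDL minus soleus) was positive for 8 of them. It was 3.11 for Fah, 2.87 for Aldh1b1, 2.46 for Cfap52, 2.03 for Nrm, 1.86 for 2310022B05Rik, 1.55 for S100a13, 1.15 for Anxa4 and 0.94 for Anxa7. It was -2.02 for Rhbdl1, which was lower in Cre+ of both muscles, and -1.60 for Acsl3, the 1 gene of the 10 whose values had opposite signs. The adjusted p values lay between 0.00258 (Rhbdl1) and 0.0328 (Anxa7).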

How the results depend on the processing

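Counts are DE genes (up, down) in soleus at 2.5 days unless stated, against 59 (53, 6). RLE factors gave 57 (46, 11), library size alone 92 (89, 3) and no filter on low counts 109 (90, 19). DESeq2 gave 364 (180, 184) on 16 libraries and 537 (280, 257) on 4. edgeR gave 86 (72, 14) on the 4 libraries, 29 (25, 4) on the 8 soleus libraries and 112 (67, 45) on all 24, and an adjusted p under 0.1 gave 130 (99, 31). The cause of these shifts was not tested. Without 1 library the DE genes numbered 7 to 39, upregulated genes 7 to 39 and downregulated genes 0.

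The difference between muscles (654) became 1001 with library size alone, 1448 with DESeq2 on 16 libraries, 1157 with edgeR on all 24, 1356 at an adjusted p under 0.1, 1019 with EDL and soleus libraries of the same number as a block and 117 to 1785 without 1 library. The difference between days (0) became 2 without the filter, 9 with DESeq2 and 0 to 11 without 1 library. With library size alone 37 oxidative phosphorylation and 6 fuel oxidation genes were lower and the former's median was -0.33. DE genes in soleus at 8.5 days (97) numbered 15 to 132 without 1 library. Without 1 library the list values ranged over 21 to 69, 11 to 22 and -0.59 to -0.33. The alternatives for these lists and for 8.5 days and the length offset were chosen after seeing the data.

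Cre+ and Cre- libraries of the same number did not deviate together (correlation -0.0326 in soleus at 2.5 days). The replicate block gave 56 (51, 5), and 571 for the difference between muscles. Wnt4 missed the threshold under it (adjusted p of edgeR 0.0576) and on the 8 soleus libraries (0.0855), and Tubb4b likewise (0.0576 and 0.0853).

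Signs reversed for genes that did not pass in any case. In the fit of 16 libraries Sdc4 had a negative value, and Klf4 and Itga7 had positive ones. The FPKM printed for Sdc4 are scaled to library size alone, without TMM. Sdc4 was 0.10 with library size alone and 0.18 without Cre- replicate 2, Klf4 was -0.006 with the length offset and -0.17 without Cre- replicate 1, and Itga7 was -0.01 without Cre- replicate 2. Without 1 library the log2 fold changes ranged from -0.17 to 0.39 for Klf4, -0.01 to 0.38 for Itga7 and -0.25 to 0.18 for Sdc4. With 2 libraries a group, 1 library decides many calls.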

Other observations

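Mitochondrial ribosomal protein genes, encoded in the nucleus, had 33 of 78 members lower in Cre+ soleus at an unadjusted p under 0.05 and 0 higher. Their median log2 fold change was -0.26 with 0 DE genes, and 7.03% of all tested genes were lower at that level. With the length trend taken out 23 were lower. The family was chosen after its values were seen. Erythroid genes, which come with blood, had a median of -0.57 over 10 tested genes and a summed level of 503.6 and 350.9 FPKM in Cre+ against 650.9 and 674.1 FPKM in Cre- libraries. Map1lc3a, an autophagosome protein, had 176 and 196 against 323 and 271 FPKM, with an adjusted p of edgeR of 0.0539.

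At an unadjusted p under 0.05, 6.33% of all tested genes were higher and 7.03% lower. Among 45 tested niche and growth factor genes 0 passed, where 0.384% of all tested genes did. Of the 45, 7 were higher and 3 lower at that unadjusted level, and the median was 0.12. Heat shock and chaperone genes had 8 of 31 lower and 3 higher, with a median of -0.14. Interferon response genes had 0 of 30 on either side, with a median of 0.04.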
